A study of Mus musculus with 64 samples.

Results

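The blood vessels of the ventral tegmental area (VTA) were followed through 10 of their marker genes: Cldn5, Pecam1, Flt1, Tek, Ly6c1, Slco1a4 and Aplnr of endothelial cells, and Pdgfrb, Rgs5 and Acta2 of mural cells. The genes are known vascular markers, chosen by name with earlier results of these data known, out of 24421 gene symbols with counts, and all 10 were among the 15634 genes that passed the filter on low counts. RNA was sequenced from punches of the VTA, home of the mesolimbic dopamine neurons in the midbrain, in 64 adult male mice of strain 129S1/Svlm with 1 library per mouse. For 14 days the mice were given VPA (valproate, used against bipolar disorder and a broad histone deacetylase inhibitor), ACY957 (which blocks class I enzymes of that family), the VPA vehicle or the ACY957 vehicle. The brains were collected 6 h after lights on (zeitgeber time), some 24 h past the final dose. Genotype was labelled Clock delta 19 mutant, a dominant-negative allele of the circadian transcription factor Clock, or Wildtype. VPA was given to 8 mutant and 8 wildtype mice, and ACY957 to 8 mutant and 8 wildtype mice. The VPA vehicle went to 13 mutant and 3 wildtype mice, and the ACY957 vehicle to 11 mutant and 5 wildtype mice, by the labels.

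Brain capillaries are tubes of endothelial cells that are sealed by tight junctions and carry transporters, which together form the blood-brain barrier. Pericytes and smooth muscle cells, the mural cells, lie on these tubes, and their recruitment depends on platelet-derived growth factor from the endothelium. Endothelial growth and stability are set by vascular endothelial growth factor (VEGF), angiopoietins and apelin acting on their receptors. In a punch that mixes all cell types, fewer vascular cells and less RNA per vascular cell cannot be told apart.

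Total counts per library ran from 20.1 M to 37.5 M with a median of 25.8 M. The design text gives 8 mice per group, whereas the vehicle labels gave 13, 3, 11 and 5. Levels are in CPM, the count of a gene scaled to a common library total. A score of clock output was taken as the average log2 CPM of 8 clock-driven genes (Bhlhe41, Ciart, Dbp, Nr1d1, Nr1d2, Per2, Per3 and Tef). It left a gap between 4.33 and 4.91, with 29 libraries below it (the lower set) and 35 above it (the upper set). On this score 13 libraries went against their label, 12 labelled mutant in the upper set and 1 labelled wildtype in the lower set, and 8 of the 12 were among the 16 vehicle libraries from mouse 48 on. Of these 8, 5 were under the VPA vehicle and 3 under the ACY957 vehicle. Counted as wildtype, they would bring each vehicle group to the 8 mice of the design text. Whether their labels are wrong was not tested, and the labels were kept as given. Th, the defining marker of dopamine neurons, lay under 8 log2 CPM in 4 libraries, namely VPA replicates 2 and 8 and VPA vehicle replicate 3 labelled mutant and VPA replicate 3 labelled wildtype. Counts of Clock itself, 34.3 to 89.5 CPM, do not check the label, since a count per gene does not show a skipped exon. Of 5 blood cell genes, 4 had no count in any library, and the other, Alas2, had 0.199 to 44.6 CPM. Why the 4 had no count was not tested, so they do not show that blood was absent.

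The sequences before the gene starts are shown for the members whose calls carry the results below, Cldn5 and Rgs5 for the genotype labels and Ly6c1 for the treatment arms. Each is the 250 bases upstream of a RefSeq start on the gene's strand in GRCm38.p6, 5′ to 3′, at chr16:18776597-18776846 (plus strand), chr1:169655251-169655500 (plus strand) and chr15:75048838-75049087 (minus strand, 1 of 2 starts listed for Ly6c1). Capitals mark every match to 4 motifs: the E-box CACGTG, to which Clock binds with its partner, the CCAAT box (CCAAT) and the ETS core GGAAG, all searched on both strands, and the TATA box TATAAA on the printed strand.
Cldn5: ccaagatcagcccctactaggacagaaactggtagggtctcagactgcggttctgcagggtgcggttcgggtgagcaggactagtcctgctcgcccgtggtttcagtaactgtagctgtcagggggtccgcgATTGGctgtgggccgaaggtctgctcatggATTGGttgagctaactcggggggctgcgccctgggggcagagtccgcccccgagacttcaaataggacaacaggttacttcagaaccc
Rgs5: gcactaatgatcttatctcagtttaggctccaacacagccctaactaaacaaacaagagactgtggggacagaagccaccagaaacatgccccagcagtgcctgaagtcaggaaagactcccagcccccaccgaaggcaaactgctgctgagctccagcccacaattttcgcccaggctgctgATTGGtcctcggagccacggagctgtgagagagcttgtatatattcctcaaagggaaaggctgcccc
Ly6c1: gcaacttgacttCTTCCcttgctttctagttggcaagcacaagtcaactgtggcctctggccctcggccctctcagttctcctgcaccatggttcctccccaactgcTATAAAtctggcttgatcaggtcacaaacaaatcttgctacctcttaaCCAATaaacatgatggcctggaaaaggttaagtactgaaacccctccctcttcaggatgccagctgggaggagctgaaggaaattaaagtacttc
The E-box was in none of the 8 windows listed for 7 of the members, and 6.02% of 32851 mouse promoter windows of that length held it. Cldn5 had 2 CCAAT boxes and Rgs5 had 1, against 33.8% of all windows with any. The ETS core was absent from both and present in the Ly6c1 window, and 64.1% of all windows held it. The Ly6c1 window also had 1 TATA box, at position -143 from the start, and 1 CCAAT box, and 7.59% of all windows held a TATA box. The window of the other Ly6c1 start, not shown, had 4 ETS cores and neither a TATA box nor a CCAAT box. A match or its absence here describes letters in a window and nothing about binding.

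Per kilobase of exon, the median level was highest for Cldn5 (51.5 CPM per kb), which encodes the main tight junction protein of brain endothelium. Ly6c1, a surface protein of brain endothelium and monocytes, followed at 28.2 CPM per kb. Slco1a4, an organic anion transporter of the barrier, was at 14.8, the contractile actin gene Acta2 at 14.3 and the pericyte G-protein regulator Rgs5 at 13.8 CPM per kb. The adhesion gene Pecam1 was at 4.57, the growth factor receptor Pdgfrb at 4.48, the angiopoietin receptor Tek at 3.62 and the VEGF receptor Flt1 at 2.88 CPM per kb. Aplnr, the apelin receptor, was far lower at 0.179 CPM per kb, with 1 to 76 reads per library. Over all 64 libraries the coefficient of variation was 13% to 21.3% for 8 members, 35.1% for Acta2 and 71.2% for Aplnr, so Aplnr is the least precisely measured. In mm10 with GENCODE M21 the genes of the calls below lie at chr16:18776847-18778262 (Cldn5, plus strand), chr1:169655501-169695813 (Rgs5, plus), chr15:75044018-75048830 (Ly6c1, minus), chr18:61045150-61085061 (Pdgfrb, plus) and chr6:141805440-141856199 (Slco1a4, minus), each value being a sum over all exons. No other annotated gene overlaps a member. Ly6c1 has a near-identical copy, Ly6c2, counted at 0 to 0.397 CPM, and Slco1a4 and Acta2 belong to families of similar genes, so that reads could have been split between copies and these 3 are uncertain to that extent.

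**Figure D1:**
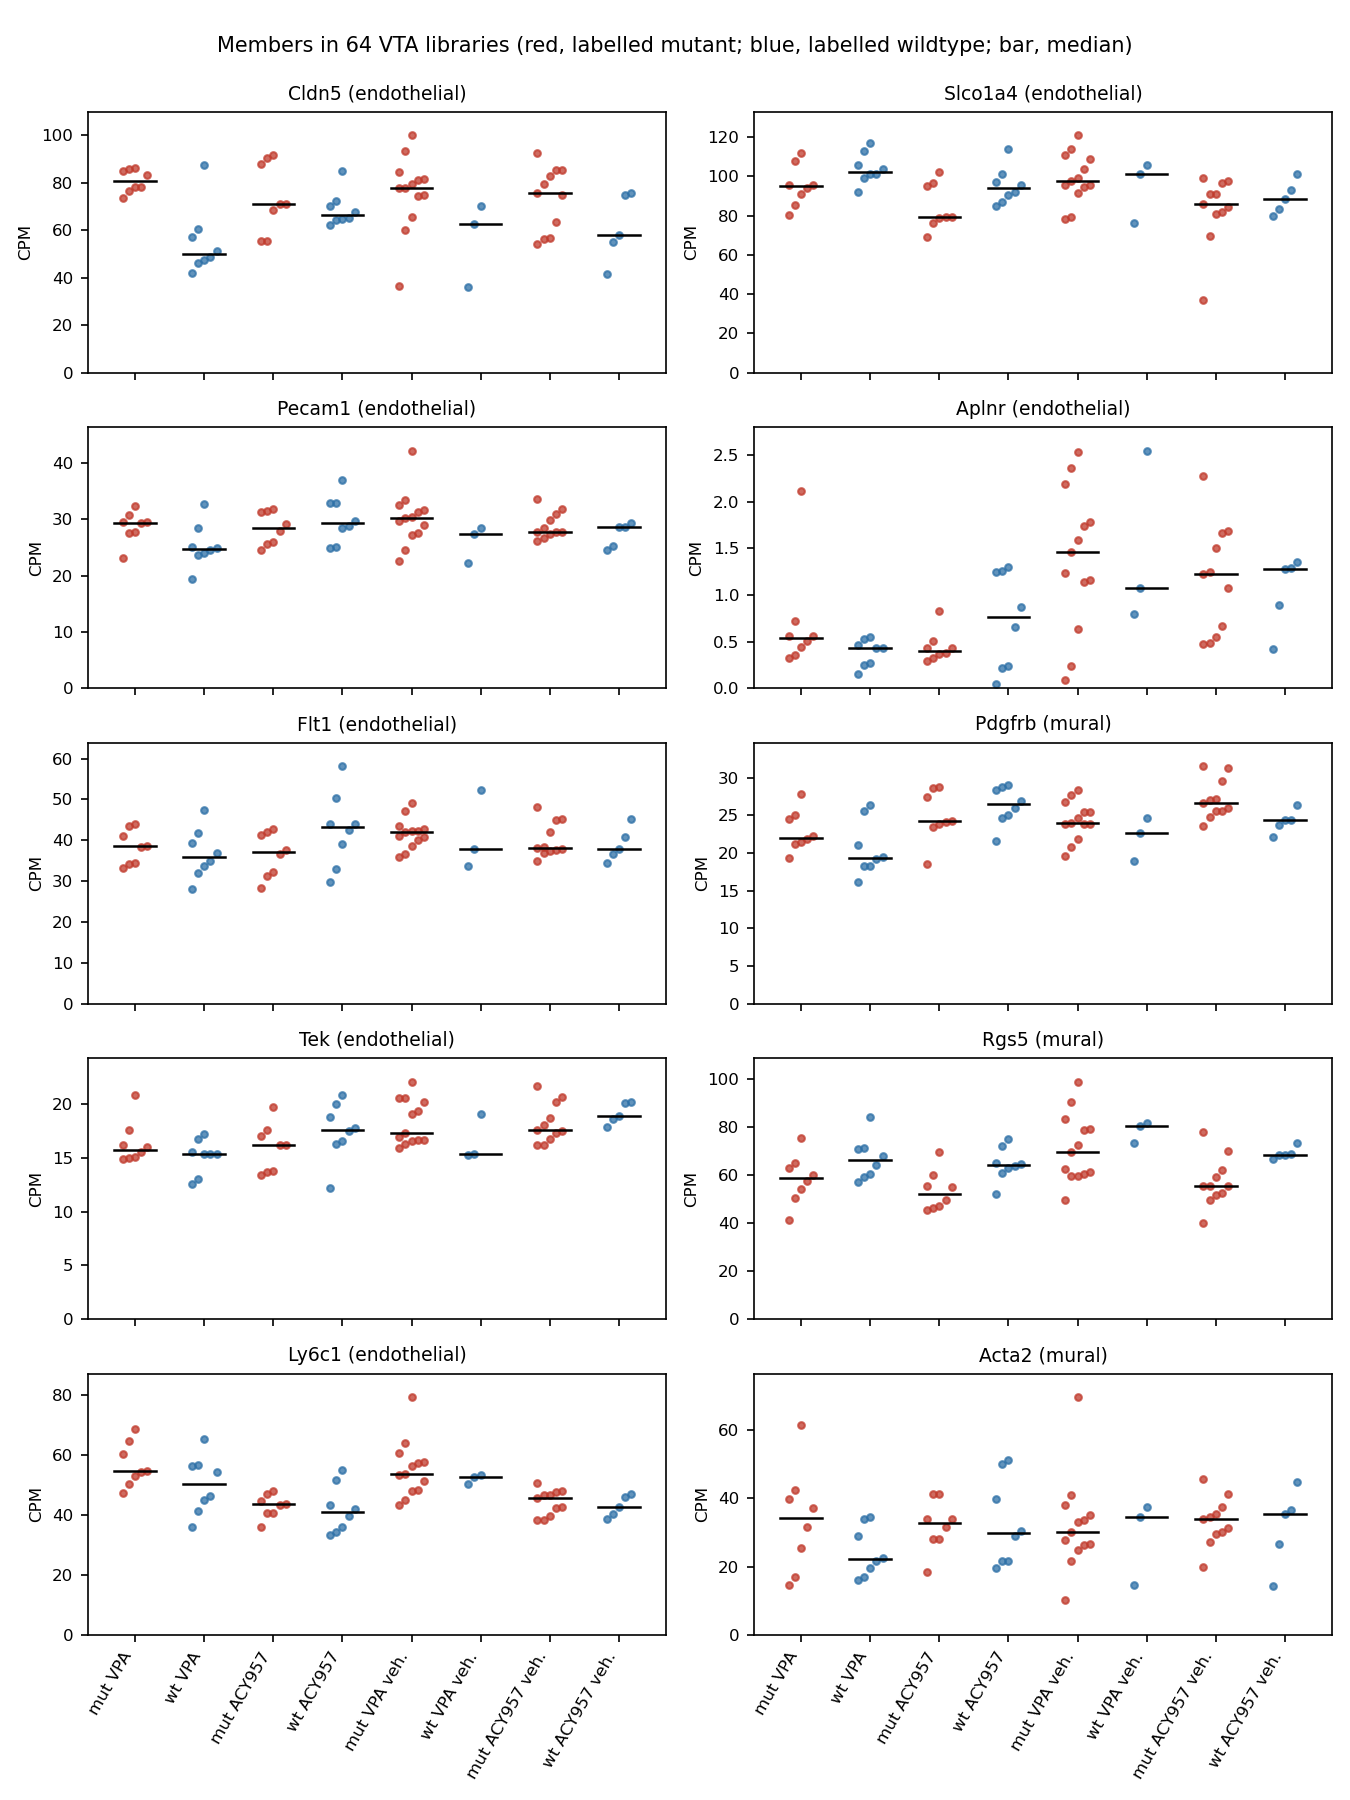
Level of each member in CPM (linear axis from 0) in all 64 libraries by group, with 1 point per library, red for the mutant label, blue for the wildtype label, and a bar at the group median. The 8 VPA-treated mutant libraries sit between 73.4 and 86.3 CPM of Cldn5, above all but 1 of the VPA-treated wildtype libraries, and Aplnr spans 0.0397 to 2.55 CPM.

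Cldn5 was the member that differed most clearly between the genotype labels. It rose under the mutant label by 0.34 log2 averaged over the 4 treatments (SE 0.08, edgeR adjusted p = 0.00953), and Rgs5 fell by 0.22 (log2 fold change -0.22, SE 0.06, edgeR adjusted p = 0.0389). The other 8 members were not called, so 2 of 10 members passed where 1.61% of all genes tested did. Each average is the mean of 4 differences within a treatment.

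Among VPA-treated mice, Cldn5 had 73.4 CPM at the lowest, 80.6 at the median and 86.3 at the highest in the 8 mutant libraries, against 42, 50 and 87.2 CPM in the 8 wildtype libraries. All 8 mutant libraries lay above the wildtype median, and the single wildtype library above them, replicate 3, was one of the 4 with low Th. The difference was 0.55 log2 (SE 0.14, edgeR adjusted p = 0.0361), and Cldn5 was the only 1 of 10 members called there, beside 1.0% of all genes. In ACY957-treated mice, Cldn5 ranged from 55.3 to 91.4 CPM with a median of 70.9 in mutant libraries, and from 62 to 84.7 CPM with a median of 66.3 in wildtype libraries. These groups overlapped throughout, and the difference of 0.10 log2 (SE 0.14) was not called.

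Under the VPA vehicle, Cldn5 ranged from 36.4 to 99.9 CPM with a median of 77.6 in 13 mutant libraries, against 62.7, 35.9 and 70.1 CPM in the 3 wildtype libraries. Under the ACY957 vehicle it ranged from 54.3 to 92.6 CPM with a median of 75.4 in 11 mutant libraries, against 55, 57.8, 74.7, 75.5 and 41.5 CPM in the 5 wildtype libraries. The differences, 0.43 log2 (SE 0.19) and 0.27 log2 (SE 0.15), pointed the same way and neither was called by edgeR. The averaged call was lost without VPA vehicle replicate 2 labelled wildtype, which had 35.9 CPM (0.28 log2, adjusted p = 0.0873). The call among VPA-treated mice was lost with Th as a covariate (0.49 log2, adjusted p = 0.0886) and without any 1 of wildtype replicates 1, 4, 5, 6, 7 and 8 or mutant replicates 7 and 8 (adjusted p at most 0.101).

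Rgs5 was lower under the mutant label in each treatment, by log2 fold changes of -0.20 with VPA (SE 0.11), -0.27 with ACY957 (SE 0.11), -0.14 with the VPA vehicle (SE 0.14) and -0.27 with the ACY957 vehicle (SE 0.12), none of them called alone. Over all treatments it ranged from 40.0 to 98.9 CPM with a median of 59.7 in 40 mutant libraries, and from 52.1 to 84.2 CPM with a median of 68.2 in 24 wildtype libraries. Under the ACY957 vehicle, 9 of 11 mutant libraries were lower than all 5 wildtype libraries, which had 68.3, 68.6, 66.6, 73.4 and 68.8 CPM. The groups overlapped in the other treatments. The averaged call was lost without the low-Th libraries (-0.20, adjusted p = 0.0719), with both vehicles pooled (-0.20, adjusted p = 0.102), and without any 1 of 10 libraries (adjusted p at most 0.111), which were VPA replicates 5 and 8 and ACY957 replicates 4, 6 and 8 labelled mutant and VPA vehicle replicates 1 and 2 and ACY957 vehicle replicates 2, 4 and 5 labelled wildtype.

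The other members gave log2 differences from -0.08 (Slco1a4) to 0.17 (Acta2) in the averaged comparison, and Pecam1 and Pdgfrb were both at 0.10 (SE 0.05, adjusted p = 0.309 and 0.321). No member was called in ACY957-treated mice (0.0% of all genes called), under the VPA vehicle (0.0064%) or under the ACY957 vehicle (0.0128%), by edgeR, DESeq2 or limma voom. An unadjusted edgeR p under 0.05 was found for 2, 1 and 1 members, beside 4.84%, 5.15% and 3.61% of all genes. Without the 13 libraries that went against their label, Cldn5 differed by 0.40 log2 (adjusted p = 0.000108) and Rgs5 by -0.30 log2 (adjusted p = 7.51e-05). Leaving those libraries out selects on clock output, itself an outcome of the genotype. Microglial markers moved with the labels too: 5 of 12 fell, beside 1.61% of all genes called in the average over treatments, and all 12 were lower in mutant libraries. Their summed level was 605 to 911 CPM in mutant and 653 to 946 CPM in wildtype libraries, with none at 0. All 15 dopamine neuron genes were lower as well, none of them called, with a median of -0.15 log2. The part of these cells in the label differences of Cldn5 and Rgs5 was not tested.

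Levels of Cldn5 also followed clock output among the libraries above the gap in the score, a relation tested after the values of single libraries had been seen. The libraries fall into separate clusters on the score, so each set was taken alone, which gave 20 correlations over 10 members and 2 sets. In the upper set of 35 libraries (12 labelled mutant, 23 labelled wildtype), Cldn5 was lower where the score was higher, with Pearson's r = -0.60 (permutation p = 0.00022, adjusted p = 0.0044) and Spearman's rho = -0.62 (permutation p = 0.00015, adjusted p = 0.003). It was -0.51 without the 2 libraries farthest from the median score and -0.53 without the low-Th libraries. Within that set r was -0.84 over the 12 libraries labelled mutant and -0.32 over the 23 labelled wildtype. Group means were not subtracted here, so differences between labels and treatments enter the r of the set. In the lower set of 29 libraries, with scores of 3.92 to 4.33, r was -0.19 (permutation p = 0.327, rho = -0.16, permutation p = 0.415). None of the other 19 correlations passed adjustment, Rgs5 included (r = 0.10 in the upper and -0.06 in the lower set). The 12 mutant-labelled libraries of the upper set had 36.4 to 99.9 CPM of Cldn5 with a median of 68.1, and the wildtype-labelled library of the lower set, ACY957 replicate 8, had 84.7 CPM.

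**Figure D2:**
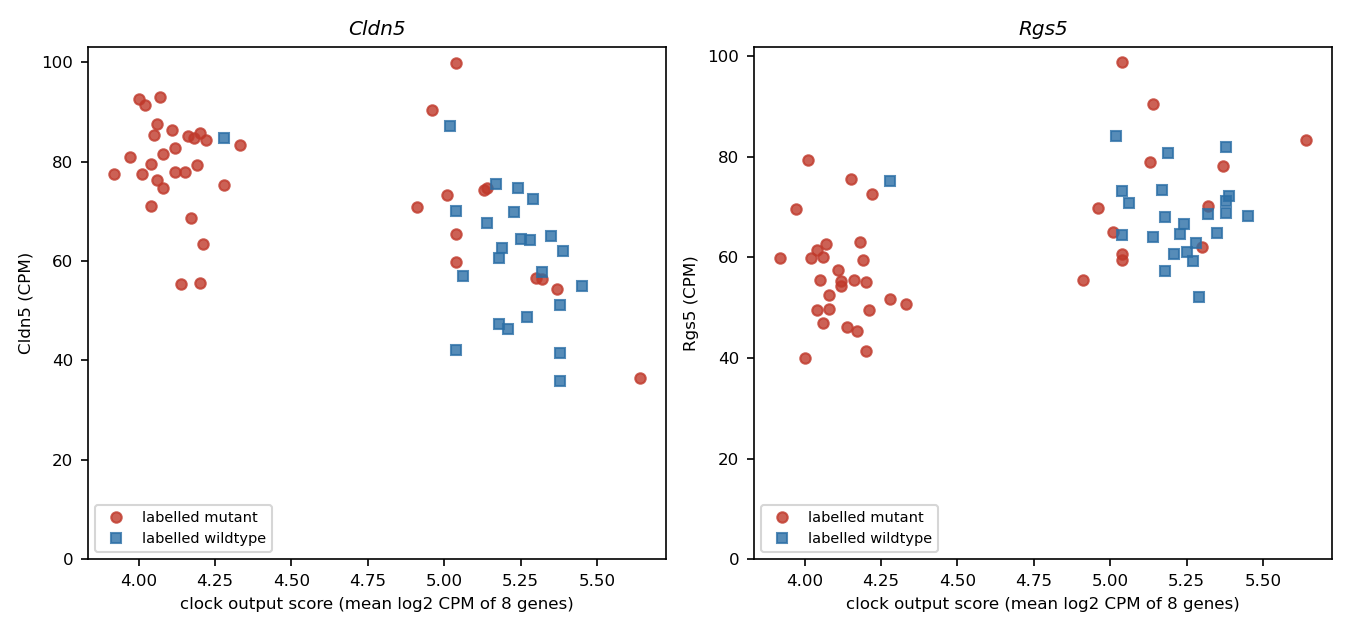
Cldn5 (left) and Rgs5 (right) in CPM, on linear axes from 0, against the clock output score of the same library, with 1 point per library, red circles for the mutant label and blue squares for the wildtype label. Scores leave a gap between 4.33 and 4.91; above it Cldn5 falls as the score goes up (r = -0.60, 35 libraries), and Rgs5 does not (r = 0.10).

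Each drug was then set against its own vehicle. None of the 10 members was called within a genotype label or averaged over both, and Aplnr came nearest. Called shares of all genes were small in these comparisons: 0.0576% for VPA and 0.0064% for ACY957 in mutant mice, 0.0256% and 0.0064% in wildtype mice, and 0.0704% and 0.0256% averaged over both labels. Members with an unadjusted edgeR p under 0.05 numbered 3 and 2 in mutant mice, 1 and 0 in wildtype mice, and 3 and 2 averaged over the labels, for VPA and ACY957 in that order. The shares of all genes under that threshold were 12.6% and 6.31% in mutant mice, 4.27% and 3.32% in wildtype mice, and 10.4% and 8.19% averaged. limma voom called none either, and DESeq2 called 1, Aplnr for VPA averaged over the labels.

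Aplnr ranged from 0.319 to 2.12 CPM with a median of 0.533 in 8 VPA-treated mutant libraries, against 0.0859 to 2.54 CPM with a median of 1.46 in 13 mutant libraries under the VPA vehicle. In wildtype mice it ranged from 0.156 to 0.55 CPM with a median of 0.434 under VPA, against 1.08, 0.8 and 2.55 CPM under the VPA vehicle. All 8 VPA-treated wildtype libraries were below all 3 of their vehicle, while the mutant groups overlapped. With ACY957, mutant libraries ranged from 0.295 to 0.829 CPM with a median of 0.404, against 0.476 to 2.28 CPM with a median of 1.23 under its vehicle, and 6 of 8 lay below the lowest vehicle library. In wildtype mice the range was 0.0397 to 1.3 CPM with a median of 0.762 under ACY957, against 1.28, 0.895, 1.29, 1.35 and 0.419 CPM under its vehicle, and these groups overlapped.

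The VPA difference of Aplnr averaged -1.46 log2 over the labels (SE 0.33, edgeR p = 4.86e-05, adjusted p = 0.0534), and the ACY957 difference -0.95 log2 (SE 0.32, adjusted p = 0.323). The VPA value was called by DESeq2 (adjusted p = 0.0191), without the low-Th libraries (-1.51, adjusted p = 0.0491), with both vehicles pooled (-1.26, adjusted p = 0.00839) and without any 1 of 17 libraries. It was not called by limma voom (-1.36, adjusted p = 0.186), with the compared groups alone (adjusted p = 0.129), with Th as covariate (-1.34, adjusted p = 0.132), without the late vehicle libraries (-1.23, adjusted p = 0.549) or without VPA vehicle replicate 3 labelled wildtype (-1.14, adjusted p = 0.232). Most of the 17 libraries were of the ACY957 arm, which the VPA difference does not compare. Without any 1 of those it stayed at -1.46 or -1.47 (edgeR adjusted p from 0.0331 to 0.0499), close to the main result. Among the 17, VPA replicate 4 labelled mutant had the highest VPA-treated level of Aplnr, 2.12 CPM, and without it the average was -1.71 (adjusted p = 0.0047) and the difference within mutant mice -1.49 (adjusted p = 0.0475, against -1.0 and 0.251 with it). With vehicles pooled, ACY957 was called as well (-1.13 averaged, adjusted p = 0.0267, and -1.52 within mutant mice, adjusted p = 0.0377). The astrocyte water channel gene Aqp4 moved with Aplnr: it fell with VPA by 0.55 log2 averaged over the labels (edgeR adjusted p = 0.0392), with 212 to 662 CPM in the 16 VPA-treated libraries and 274 to 567 CPM in the 16 of the VPA vehicle. It was the only 1 of 10 astrocyte genes called there, none of which was at 0, and its part in the Aplnr difference was not tested. Of 8 hypothalamic genes tested, Pmch (2.44 log2) and Hcrt (2.85 log2) rose with VPA averaged over the labels. Within a label both were called in mutant mice only, where Pmch averaged 131 CPM (SD 203) with VPA against 7.02 CPM under the vehicle. The rise was uneven over these VPA-treated mutant libraries, in which the 10 listed hypothalamic genes summed to 27.6 to 688 CPM with a median of 73.8. Replicates 2 and 8 of this group were low in Th (44.2 and 26.3 CPM). Pmch averaged 7.61 CPM in VPA-treated wildtype mice, where 0 of the 8 genes tested were called against the vehicle. All 15 dopamine neuron genes were lower without a call. The part of these 2 lists in the Aplnr difference was not tested either.

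Tek was 0.15 log2 lower with VPA (SE 0.07, adjusted p = 0.449) and 0.16 lower with ACY957 (SE 0.06, adjusted p = 0.465), averaged over the labels. With vehicles pooled the VPA difference of Tek was called (-0.21, adjusted p = 0.0268). Rgs5 was 0.26 log2 lower with VPA (SE 0.09, adjusted p = 0.267) and 0.10 lower with ACY957 (SE 0.08). Cldn5, Pecam1, Flt1, Ly6c1, Slco1a4, Pdgfrb and Acta2 lay between -0.14 and 0.09 log2 in both averages. No drug effect of a member differed between the genotype labels by edgeR, DESeq2 or limma voom, and no member had an unadjusted edgeR p under 0.05 in that test, with 0.0064% of all genes called for VPA and 0.0% for ACY957.

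Members also differed between the 2 treatment arms. VPA-treated mice were compared with ACY957-treated mice, and VPA vehicle mice with ACY957 vehicle mice. Ly6c1 was higher on the VPA side in all 4 of these comparisons and Pdgfrb was lower in all 4. Each arm had its own vehicle, so the agent given and anything else that differed between the arms cannot be told apart.

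Ly6c1 ranged from 47.4 to 68.5 CPM with a median of 54.5 in 8 VPA-treated mutant libraries, against 36 to 47.8 CPM with a median of 43.5 in 8 ACY957-treated mutant libraries. Of the VPA-treated libraries, 7 of 8 lay above all ACY957-treated ones, and the difference was 0.40 log2 (SE 0.10, edgeR adjusted p = 0.0137). It was the only 1 of 10 members called, beside 5.56% of all genes, and was lost with Th as a covariate (adjusted p = 0.0654). In wildtype mice Ly6c1 ranged from 36.1 to 65.2 CPM with a median of 50.3 with VPA and from 33.4 to 54.9 CPM with a median of 40.8 with ACY957, and this difference of 0.26 log2 (SE 0.10, adjusted p = 0.177) was not called.

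Between the vehicles, mutant libraries had 43.2 to 79.2 CPM of Ly6c1 with a median of 53.8 under the VPA vehicle, against 38.2 to 50.5 CPM with a median of 45.5 under the ACY957 vehicle. The groups overlapped, with 9 of 13 libraries above all 11 of the other vehicle, and the difference was 0.32 log2 (SE 0.08, edgeR adjusted p = 0.0192). In wildtype mice the VPA vehicle gave 53.4, 52.6 and 50.3 CPM and the ACY957 vehicle 40.4, 46, 42.6, 46.8 and 38.6 CPM. These did not overlap, and with 3 against 5 libraries the difference of 0.28 log2 (SE 0.14) was not called. Rgs5 also rose between the vehicles in mutant mice, to a median of 69.7 CPM (49.7 to 98.9) under the VPA vehicle, against 55.5 CPM (40.0 to 78.2) under the ACY957 vehicle (0.32 log2, SE 0.09, edgeR adjusted p = 0.0352). The ranges overlapped widely.

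These 2 of 10 members were called where 3.66% of all genes were, and DESeq2 added Slco1a4 (0.26 log2, SE 0.09, edgeR adjusted p = 0.0725, DESeq2 adjusted p = 0.0487). In wildtype mice no member and no gene was called by edgeR, DESeq2 or limma voom (0.0%), although 705 genes had an unadjusted edgeR p under 0.05, and no member had an unadjusted edgeR p under 0.05. Neither call between the vehicles remained without the 16 libraries from mouse 48 on, or over those alone, both with fewer libraries. Without them Ly6c1 differed by 0.59 log2 (adjusted p = 0.0596) and over those 16 alone by 0.19 log2 (adjusted p = 0.288). Rgs5 differed by 0.24 log2 without them and 0.34 log2 over them alone (adjusted p = 0.322 in both). It was not called with the 2 groups fitted alone (0.32 log2, adjusted p = 0.0898), without the libraries against their label (0.31 log2, adjusted p = 0.0589), or without any 1 of ACY957 vehicle replicates 2, 3, 4, 5 and 11 and VPA vehicle replicates 5, 8 and 11 (adjusted p at most 0.075).

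Pdgfrb, whose product pericytes need for their recruitment, fell in the wildtype comparison of the drugs. It ranged from 16.2 to 26.3 CPM with a median of 19.3 in 8 VPA-treated libraries, against 21.6 to 29 CPM with a median of 26.5 in 8 ACY957-treated libraries. All 8 VPA-treated libraries were below the ACY957 median and 6 below the lowest ACY957 library, and the log2 difference was -0.36 (SE 0.08, edgeR adjusted p = 0.0272). It was the only 1 of 10 members called, beside 0.959% of all genes. In mutant mice the difference was -0.12 (SE 0.08, adjusted p = 0.403). The wildtype call was lost with the 2 groups fitted alone (adjusted p = 0.063), without the libraries against their label (adjusted p = 0.0561), and without any 1 of VPA replicates 1, 4, 5, 6 and 8 and ACY957 replicates 3, 5 and 7 (adjusted p at most 0.0935). Pecam1 was 0.24 log2 lower there (SE 0.09, adjusted p = 0.148), and was called without the low-Th libraries (-0.30, adjusted p = 0.0214) and without VPA replicate 3 alone (-0.30, adjusted p = 0.049).

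**Figure D3:**
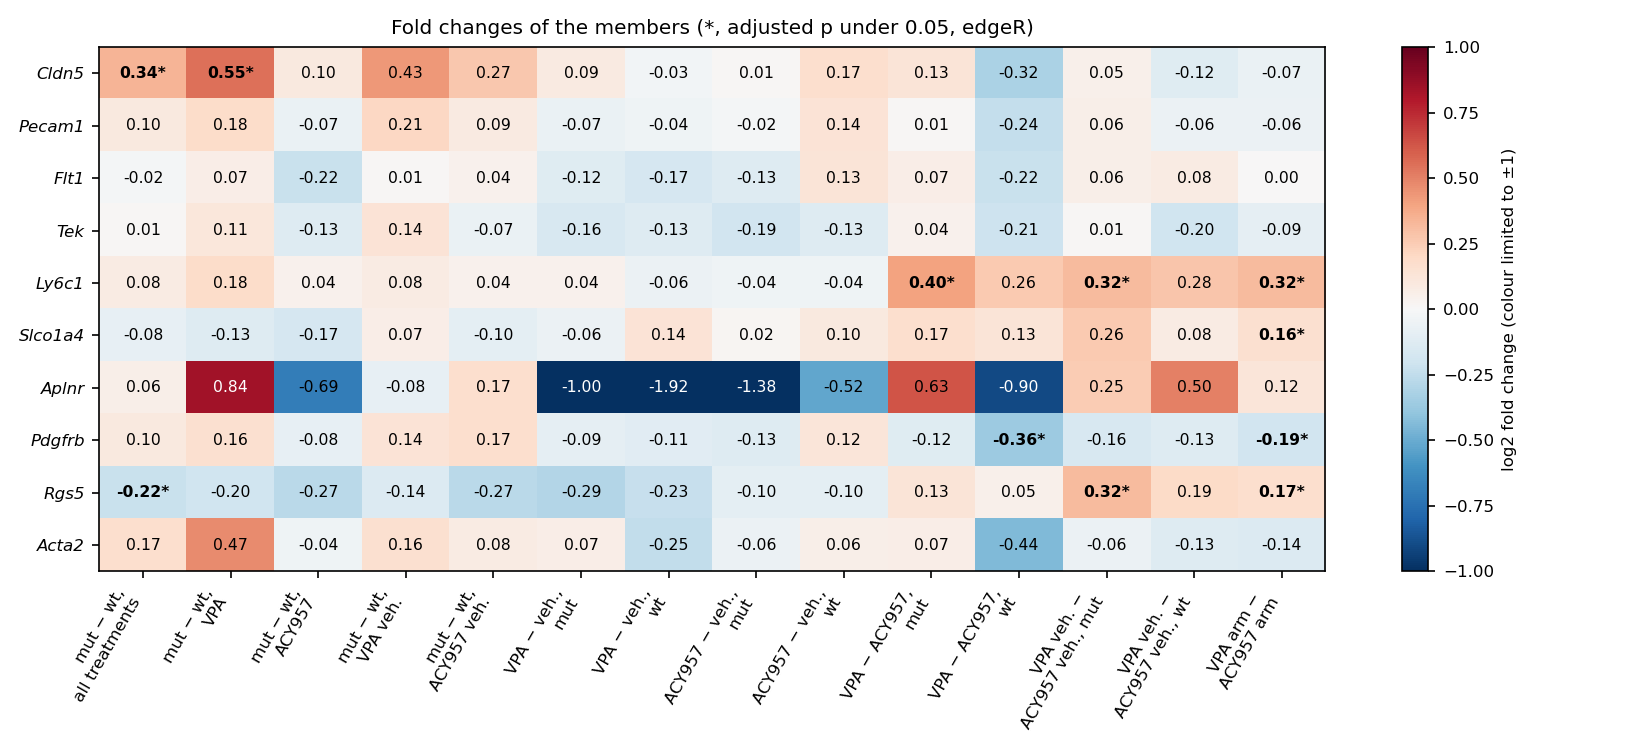
Log2 fold changes of the 10 members (rows) in 14 comparisons (columns, first group minus second), with colour from blue (lower) to red (higher), limited to ±1, and a star where the edgeR adjusted p is under 0.05. Ly6c1 is red in all 5 columns that set the VPA side against the ACY957 side, Cldn5 is red and Rgs5 blue in the columns of genotype label, and Aplnr is dark blue in 3 of the 4 columns of drug against vehicle.

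Taking all 4 VPA groups (32 libraries) against all 4 ACY957 groups (32 libraries), a comparison added after the data had been seen and built from the same libraries as those above, 4 of 10 members were called beside 15.9% of all genes. Ly6c1 ranged from 36.1 to 79.2 CPM with a median of 53.6 on the VPA side, against 33.4 to 54.9 CPM with a median of 42.9 on the ACY957 side (0.32 log2, SE 0.05, edgeR adjusted p = 8.85e-05). Slco1a4 was also higher on the VPA side, with a median of 99.1 CPM against 89.5 CPM (0.16 log2, SE 0.06, adjusted p = 0.0463), as was Rgs5 with 64.8 CPM against 60.4 CPM (0.17 log2, SE 0.06, adjusted p = 0.0424). Pdgfrb was lower, with 23.3 CPM against 25.8 CPM (-0.19 log2, SE 0.05, adjusted p = 0.00339). The arms overlapped for every member.

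The calls of Ly6c1 and Pdgfrb remained in all 8 other settings and all 64 refits without 1 library. Those of Slco1a4 and Rgs5 were lost with Th as a covariate (adjusted p = 0.0766 and 0.0865), with no low-count filter (adjusted p = 0.0568 and 0.0523), and in 25 and 17 of the refits. The median log2 difference of the 10 members was -0.03, beside 0.0 over all genes.

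Other vascular genes differed between the arms too, on lists chosen with earlier results of these data known. Of 22 other endothelial genes 6 rose on the VPA side and none fell: the adhesion receptor gene Adgrl4 (0.33 log2, SE 0.05, edgeR adjusted p = 4.12e-05), the Ly6c1 relative Ly6a (0.31), the adrenomedullin co-receptor gene Ramp2 (0.29), Itm2a (0.24), the adhesion gene Icam2 (0.25) and Cd34 (0.13). The median of the list was 0.04, with 13 higher and 9 lower. These counts stand beside the 15.9% of all genes called between the arms, and the counts given below for the pericyte, arterial and venous and VEGF lists are near that share. Of 18 barrier genes 7 rose and 1 fell. The lipid transporter Mfsd2a differed by 0.39 log2 (SE 0.08, adjusted p = 0.00124), the efflux pumps Abcg2 and Abcb1a by 0.24 and 0.18, the glucose transporter Slc2a1 by 0.23, the tight junction gene Ocln by 0.17, the thyroid hormone transporter Slco1c1 by 0.19 and the transporter chaperone gene Bsg by 0.12, while the amino acid transporter Slc7a1 fell by 0.13. The adjusted p of Adgrl4, Ly6a and Mfsd2a stayed under 0.05 in all 8 other settings and all 64 refits without 1 library.

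Of 14 other pericyte genes, 6 were higher and 8 lower with a median of -0.04 log2, none rose and 2 fell, the receptor gene Notch3 (-0.23 log2, SE 0.05, adjusted p = 0.000976) and the proteoglycan gene Cspg4 (-0.16, SE 0.05, adjusted p = 0.0123). Of 11 smooth muscle genes tested none was called (1 at an unadjusted edgeR p under 0.05, beside 30.3% of all genes) and 10 were lower, with a median of -0.10. Among 12 arterial and venous genes, Gkn3 rose (0.63) and the gap junction gene Gja5 fell (-0.46). Of 8 VEGF pathway genes tested only the co-receptor Nrp2 was called (-0.25), and none of 5 angiopoietin, 5 PDGF and 2 apelin pathway genes (2, 1 and 1 at an unadjusted edgeR p under 0.05).

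Markers of other cell types moved with the arms. Of 12 oligodendrocyte genes 5 rose and 11 were higher on the VPA side, with a summed level of 10400 to 21900 CPM against 10100 to 18200 CPM. All 15 dopamine neuron genes were lower, 1 of them called, with a summed level of 404 to 14500 CPM against 3070 to 11100 CPM. Of 8 hypothalamic genes tested 2 rose, Pmch (1.12 log2) and Tac2 (1.03 log2), with a summed level of 23.8 to 688 CPM and a median of 41.7 in the VPA arm, against 27.4 to 140 CPM and a median of 40.5 in the ACY957 arm. No gene of the oligodendrocyte and dopamine neuron lists was at 0 throughout an arm, and the part of these cells in the vascular differences was not tested.

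**Figure D4:**
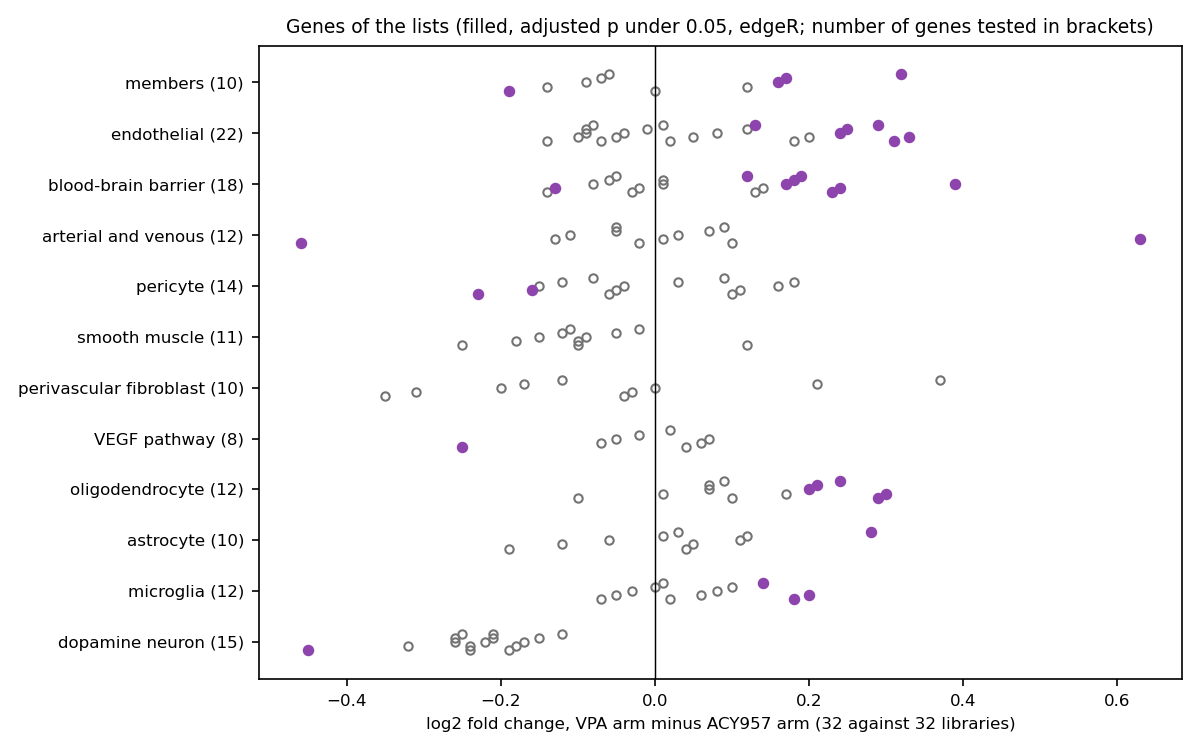
Log2 fold changes between the VPA arm and the ACY957 arm (x axis, 32 libraries each) for each gene of 12 lists (rows, number of genes tested in brackets), with filled points where the edgeR adjusted p is under 0.05. Filled points of the endothelial list lie right of 0 and those of the pericyte list left of 0, the dopamine neuron genes all lie left of 0, and the barrier list has 7 filled points to the right and 1 to the left.

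Between the genotype labels few genes of the same lists were called. No gene of the 22 endothelial, 18 barrier or 11 smooth muscle genes was called by edgeR in the average over treatments. An unadjusted edgeR p under 0.05 was found for 3, 6 and 1 of them, beside 14.4% of all genes. Gkn3, a gene of arterial endothelium in the mouse, fell under the mutant label by more than any member (log2 fold change -1.08, SE 0.19, edgeR adjusted p = 0.00018). It had 0.0492 to 7.7 CPM with a median of 2.47 in 40 mutant libraries, against 1.07 to 8.27 CPM with a median of 5.42 in 24 wildtype libraries. The labels overlapped, and Gkn3 stayed under the threshold in all 9 other settings and all 64 refits (adjusted p at most 0.00122). The G-protein regulator Rgs4 of the pericyte list rose by 0.21 log2 (SE 0.06, adjusted p = 0.0493), with means of 200 CPM in mutant and 173 CPM in wildtype libraries. It was the only 1 of the 14 genes of that list called, and 6 were higher and 8 lower with a median of -0.02. Which cells of the punch its RNA came from was not tested.

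Last, the members were correlated with each other over the 64 libraries after the mean of each group was subtracted, which leaves variation between mice of the same group. Of 45 pairs, 33 were positive, 15 were called positive and 1 negative after adjustment over the 45, with a median r of 0.18. The same counts were not made for pairs of other genes, so these do not show that the members co-vary more than other genes do. The strongest was the endothelial pair Cldn5 and Pecam1, with Pearson's r = 0.61 (permutation p = 1e-05, the smallest these permutations can give, adjusted p = 0.00045) and Spearman's rho = 0.50 (permutation p = 0.00011, adjusted p = 0.00202). It was 0.51 without the 2 libraries farthest from the median and positive in each of the 6 groups of 8 or more libraries, from 0.06 to 0.82. The receptor pair Flt1 and Pdgfrb reached r = 0.53 (permutation p = 6e-05, adjusted p = 0.00105, rho = 0.50, permutation p = 0.00018) and was 0.56 without the 2 farthest libraries. Tek and Aplnr, both receptors of endothelial growth signals, reached r = 0.48 (permutation p = 0.0003, adjusted p = 0.0027, rho = 0.44, permutation p = 0.0006), with 0.34 without the 2 farthest.

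The called pairs joined genes within and across the 2 cell classes. Of 21 pairs with both genes endothelial 7 were called positive, of 21 pairs of an endothelial and a mural gene 8, and of the 3 mural pairs none, with r = -0.24 for Rgs5 and Acta2 (permutation p = 0.0733, rho = -0.23, permutation p = 0.077). The negative call was Ly6c1 and Aplnr (r = -0.37, permutation p = 0.00859, adjusted p = 0.0276, rho = -0.27, permutation p = 0.0437), whose rho did not pass (adjusted p = 0.104) and which was -0.25 without the 2 farthest libraries. Slco1a4 and Rgs5 reached r = 0.41 (permutation p = 0.00375, rho = 0.29, permutation p = 0.0278), and 0.22 without the 2 farthest, so the relation rests largely on those libraries.

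**Figure D5:**
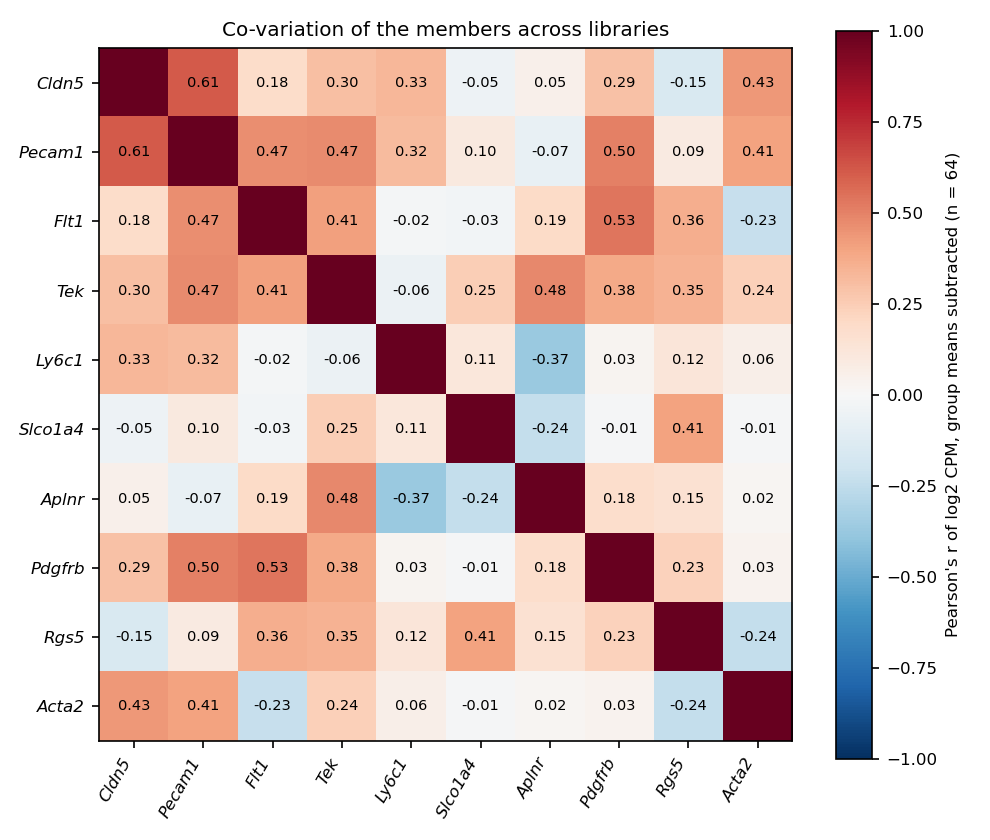
Pearson's r between each pair of the 10 members (rows and columns in the same order, endothelial genes first) over 64 libraries, from log2 CPM with group means subtracted, blue for negative and red for positive. Pecam1 has r of 0.61 with Cldn5 and 0.50 with Pdgfrb, and Rgs5 with Acta2 is at -0.24.

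Against 5 marker genes of other cells and library size (60 correlations, adjusted together), 8 passed by Pearson's r. The myelin gene Mbp went with Rgs5 (r = 0.52, permutation p = 3e-05, rho = 0.58, permutation p = 1e-05), Tek (r = 0.51, permutation p = 6e-05, rho = 0.50, permutation p = 0.00011), Flt1 (r = 0.48, permutation p = 0.00019, rho = 0.48, permutation p = 0.00027) and Pecam1 (r = 0.36, permutation p = 0.00479, rho = 0.47, permutation p = 0.00026). Aplnr went with Aqp4 (r = 0.56, permutation p = 2e-05, rho = 0.52, permutation p = 8e-05, 0.50 without the 2 farthest libraries). The microglial gene Cx3cr1 went with Tek (r = 0.44, permutation p = 0.00162, rho = 0.34, permutation p = 0.00979) and Aplnr (r = 0.36, permutation p = 0.00545, rho = 0.26, permutation p = 0.0347), and opposite to Ly6c1 (r = -0.47, permutation p = 0.00034, rho = -0.38, permutation p = 0.00334). For Cx3cr1 the rho of Tek and Aplnr did not pass (adjusted p = 0.0653 and 0.139), and that of Ly6c1 did (adjusted p = 0.0286). By Pearson's r none of the 10 passed with Th, the hypothalamic gene Pmch or library size. By rho Slco1a4 was lower where Th was higher (rho = -0.39, permutation p = 0.00124, adjusted p = 0.0124, with r = -0.14, permutation p = 0.151).

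Over all genes tested, those most like a member, by Pearson's r on the same values over 64 libraries, were closest for Acta2, with Tagln at 0.95, Mgp at 0.87 and Pln at 0.86. Slco1a4 had Sept7 at 0.85 and Flt1 had Dock1 at 0.82. Ly6c1 had Ly6a at 0.79, Tek had Fgfr2 at 0.75, Cldn5 had Lsr at 0.74 and Foxs1 at 0.72, and Aplnr had Fgfrl1 at 0.73. Rgs5 had Wee1 at 0.70, and Pecam1 had Col4a2 at 0.67 and Col4a1 at 0.64.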

How the data were processed

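The deposited table holds whole-number read counts per gene and library. Per the design text, the authors checked reads with FastQC 0.11.3, aligned them to mm10 with TopHat2 2.0.9 and counted them with HTSeq 0.6.1 in union mode, from stranded poly(A) libraries. The submitters' processing notes name HISAT2 and Trimmomatic, so the aligner is not settled. Members and gene lists were chosen with earlier results of these data known. Genes with low counts were removed by filterByExpr, leaving 15634. One edgeR 4.0.16 quasi-likelihood model (TMM scaling, R 4.3.3) with 8 group means over all 64 libraries gave log2 fold changes, and p-values were adjusted by Benjamini-Hochberg over all genes of a comparison at 0.05. Standard errors were derived from each fold change and its F statistic. CPM used TMM library sizes.

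Total counts were 20.1 M to 37.5 M. Groups were taken from the labels, 1 mouse per library, and replicate numbers are in accession order and pair nothing. No pair of libraries agreed within counting noise (chi-square per degree of freedom at least 6.78). The genes named were the 10 members, called genes of the lists, and the most similar genes by r, which are not reported here for Pdgfrb. Correlations used 100000 permutations of libraries within groups (within each set for the clock score), on log2 CPM with a prior count of 2. Alternatives were DESeq2 1.42.0, limma 3.58.1 voom, DESeq2 size factors, no low-count filter, the compared groups alone, omission of late vehicle or low-Th libraries, Th as covariate, pooled vehicles and omission of each library. Added after the data were seen were omission of the 13 libraries against their label, the late vehicles alone, the comparison of arms and the clock score correlations. The edgeR script was tested on simulated data.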

Additional observations from a re-analysis of the deposited data

Results flagged for a closer look

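In 50 groups of 4 to 10 libraries, 5 values of members stood apart from the rest of their group by a gap test, a rule by which chance flags about 1 group in 20. Cldn5 had 87.2 CPM in VPA replicate 3 labelled wildtype, where the next library had 60.6 and the lowest 42 CPM. That library is one of the 4 low in Th. Cldn5 had 84.7 CPM in ACY957 replicate 8 labelled wildtype, with the next at 72.4 and the lowest at 62 CPM, and its clock output score of 4.28 lies in the lower set. VPA replicate 4 labelled mutant was apart for both Tek, at 20.9 CPM with the next at 17.6, and Aplnr, at 2.12 CPM with the next at 0.725. Aplnr had 0.829 CPM in ACY957 replicate 3 labelled mutant, with the next at 0.511 and the lowest at 0.295 CPM.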

How the results depend on the processing

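Over 14 results of single members, 1026 recomputations gave 907 on the same side of the threshold with the same direction, 93 that lost a call, 26 that gained one and 0 that reversed. Each result had 64 refits without 1 library and 8 to 10 other settings. Many refits left out a library of groups not compared, so the 907 overstates how stable a call is. Cldn5 between the labels under VPA and Pdgfrb between the drugs in wildtype mice compared 8 with 8 libraries. Each of these calls was lost without any 1 of 8 of those libraries. The number of members called was 0 with Th as covariate between the labels under VPA (0 to 1 without 1 library, against 1) and between the drugs in mutant mice (against 1). Between the drugs in wildtype mice it was 0 with the groups alone, 2 without low-Th libraries and 0 without the libraries against their label (0 to 2 without 1 library, against 1). Between the vehicles in mutant mice it was 1 with the groups alone, 0 without the 16 late libraries, 1 without those against their label and 0 over the late ones alone (1 to 3 without 1 library, against 2). For the averaged label it was 1 without low-Th libraries and 1 with vehicles pooled (0 to 2 without 1 library, against 2). For averaged VPA it was 1 by DESeq2, 1 without low-Th libraries and 2 with vehicles pooled (0 to 1 without 1 library, against 0). With vehicles pooled it was 1 for averaged ACY957 and 1 for ACY957 in mutant mice, and for VPA in mutant mice it was 0 to 1 without 1 library (against 0 each). Between the arms it was 2 with no filter and 2 with Th as covariate (2 to 4 without 1 library, against 4). The cause of these changes was not tested.

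Over all genes, calls between the labels under VPA (main 157) ran from 71 with Th as covariate to 255 by DESeq2 over the other settings, and from 51 to 504 without 1 library. For averaged VPA (main 11) they ran from 0 to 450 and from 2 to 68 without 1 library, for averaged ACY957 (main 4) from 2 to 232 and from 2 to 23, for VPA in mutant mice (main 9) from 0 to 130 and from 3 to 269, and for ACY957 in mutant mice (main 1) from 0 to 119 and from 1 to 4. Between the drugs they ran from 260 to 1215 and from 233 to 1231 without 1 library in mutant mice (main 869), and from 66 to 482 and from 25 to 325 in wildtype mice (main 150). Between the vehicles in mutant mice (main 572) they ran from 0 to 1286 and from 241 to 1033, for the averaged label (main 252) from 203 to 677 and from 126 to 325, and between the arms (main 2489) from 2190 to 3143 and from 1550 to 2859. Without the libraries against their label, 48 genes were called under ACY957 (main 0), 28 under the VPA vehicle (main 1) and 51 under the ACY957 vehicle (main 2). Called positive pairs of members numbered 12 without low-Th libraries, against 15. No paired analysis was possible because the labels give no replicate numbers that tie mice of different groups together. Depth limits Aplnr most, at 1 to 76 reads per library.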

Other observations

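Apelin, the ligand of Aplnr, was higher between the vehicles in mutant mice, with Apln at 0.48 log2 above (edgeR adjusted p = 0.0171) under the VPA vehicle. That call was lost without the 16 late libraries, over those alone, and without the libraries against their label (adjusted p at most 0.428). Perivascular fibroblast genes, another cell type of the vessel wall, had 0 of 10 called between the arms and 0 of 10 between the labels, with medians of -0.08 and 0.12 log2. In each, 3 genes had an unadjusted edgeR p under 0.05, beside 30.3% and 14.4% of all genes. Of 22 endothelial genes 19 were lower with VPA than with its vehicle, averaged over the labels, with a median of -0.13 log2 (0.0 over all genes). None was called by edgeR, and 7 had an unadjusted edgeR p under 0.05, beside 10.4% of all genes.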
